A study of Mus musculus with 24 samples.

Results

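The homeostatic microglia genes are a list of 9 genes, chosen by symbol, that mark resting microglia in the brain: Cx3cr1, P2ry12, Tmem119, Csf1r, Trem2, Sall1, Aif1, Siglech and Itgam. Of the 9, 8 were analysed among the 47643 gene symbols of the table, and Itgam was not analysed here. They were followed by bulk RNA sequencing in the neocortex (NEO), cerebellum (CER) and hippocampus (HIP) of male C57BL/6J mice aged 4 months. The LLC mice had been injected with LLC cells, which grew for about 3 weeks, and the control mice had a mock injection. The labels do not spell out LLC, which in this field usually abbreviates Lewis lung carcinoma, and the series title names melanoma. Each of the 6 groups of region and treatment held 4 libraries, numbered 1 to 4 for LLC and 14 to 17 for control, 24 in all. The labels call the libraries biological replicates, and whether 1 mouse gave its 3 regions under a shared number is not given, so p-values measure the spread between these libraries.

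Microglia are the resident macrophages of the brain. They depend on signalling through the receptor encoded by Csf1r, whose ligands are colony stimulating factor 1 and interleukin 34, and their identity is held by transcription factors such as SALL1 and PU.1 together with transforming growth factor beta from their surroundings. Cx3cr1 encodes the receptor for fractalkine, a chemokine that neurons make. P2ry12 encodes a purine receptor that draws microglial processes toward ADP, Tmem119 a membrane protein and Siglech a sialic acid-binding lectin, all widely used as microglial markers. Trem2 encodes a lipid-sensing receptor that signals through TYROBP, and Aif1 encodes IBA1, a calcium-binding protein of microglia and macrophages. In inflamed or injured brain, P2ry12 and Tmem119 are known to be lowered in activated microglia, while Aif1 is also made by infiltrating myeloid cells.

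RefSeq promoter windows of GRCm38.p6, here the 250 bases upstream of the start site, were examined for 6 of the 8 genes. No window of Tmem119 or Csf1r was examined, so the motif counts leave these genes out. The windows of 4 genes hold at most 30 annotated exonic bases. Those of Trem2, Aif1 and Siglech are shown, the first pair because they hold a motif searched for and Siglech as one that holds none, while the 3 windows of Sall1, one for each annotated start, also hold neither motif and are not printed. Capitals mark matches on either strand to GAGGAA, the core bound by PU.1, the factor that all microglia need, and to TGANTCA. The latter is a loose pattern, with any base at its centre, for the AP-1 site bound by factors of the immediate response. The Trem2 window (chr17:48346151-48346400, plus strand) holds the PU.1 core on the opposite strand beginning 40 bases before the start site. A match to the loose AP-1 pattern, with A at its centre (TGAATCA), begins 9 bases before that site. The Aif1 window (chr17:35176053-35176302, minus strand) holds the PU.1 core on the opposite strand 7 bases before the start site. That match lies within the 16 bases of the window that are annotated as exon of Aif1 itself. The Siglech window (chr7:55767934-55768183, plus strand) holds neither.
Trem2: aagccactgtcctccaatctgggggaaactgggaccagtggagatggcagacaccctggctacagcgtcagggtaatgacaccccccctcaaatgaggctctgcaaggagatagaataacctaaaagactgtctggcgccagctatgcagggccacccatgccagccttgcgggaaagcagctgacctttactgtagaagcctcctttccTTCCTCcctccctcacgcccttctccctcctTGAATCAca
Aif1: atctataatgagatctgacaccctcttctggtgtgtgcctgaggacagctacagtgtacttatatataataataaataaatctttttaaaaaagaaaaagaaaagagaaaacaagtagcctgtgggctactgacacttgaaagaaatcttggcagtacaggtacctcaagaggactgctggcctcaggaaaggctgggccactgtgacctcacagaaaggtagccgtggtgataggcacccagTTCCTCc
Siglech: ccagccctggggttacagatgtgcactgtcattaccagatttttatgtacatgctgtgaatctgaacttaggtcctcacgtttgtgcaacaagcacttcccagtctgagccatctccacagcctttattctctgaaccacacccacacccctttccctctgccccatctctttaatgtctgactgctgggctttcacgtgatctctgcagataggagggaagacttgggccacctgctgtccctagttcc
The PU.1 core was found in the windows of 2 of the 6 genes examined and in 23.3% of all 32851 windows of that length. The loose AP-1 pattern was found in 1 of the 6 and in 6.75% of all windows. A match is a description of the letters and does not show binding.

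Values are TPM, transcript abundances divided by transcript length and scaled to sum to 1000000 in each library, so levels can be compared between genes but the number of reads behind them is unknown. Between 14368 and 14847 genes reached 1 TPM per library, and 0 of 276 pairs of libraries held identical values. The cerebellar libraries followed their label: Gabra6, a receptor subunit of cerebellar granule cells, was at 455 TPM or more in the cerebellum and at most at 0.403 TPM elsewhere. Because tissue was sequenced in bulk, fewer microglia and less RNA of a gene per microglial cell cannot be told apart.

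On the mouse genome build mm10 with the GENCODE M21 annotation, all members are protein-coding genes. P2ry12 lies on chromosome 3 (59216272 to 59262871, minus strand), Tmem119 on chromosome 5 (113793729 to 113800516, minus strand) and Siglech on chromosome 7 (55768178 to 55778925, plus strand). Sall1 lies on chromosome 8 (89027235 to 89044162, minus strand), Cx3cr1 on chromosome 9 (119901616 to 120069879, minus strand) and Csf1r on chromosome 18 (61100598 to 61132149, plus strand). Aif1 (35170991 to 35176068, minus strand) and Trem2 (48346401 to 48354147, plus strand) are both on chromosome 17. P2ry12 sits inside Med12l, a Mediator subunit gene on the opposite strand, with which it shares 9 of its 2546 exonic bases, while 873 of the 5774 exonic bases of Csf1r, 15.1%, are shared with Hmgxb3, also on the opposite strand. The library kit keeps the strand, per the labels, but whether the counting used it is not given in the sources used here. Med12l did not differ between LLC and control in any region by limma, with adjusted p of 0.948 in the neocortex, 0.233 in the cerebellum and 0.363 in the hippocampus. The lowest adjusted p of Hmgxb3 in a region was 0.402. In the average over the 3 regions the limma adjusted p was 0.488 for Med12l and 0.277 for Hmgxb3.

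In control mice the microglia genes were far lower in the cerebellum than in the neocortex or hippocampus. Csf1r was the most abundant, at 60.1 ± 3.04 TPM in the neocortex, 50.6 ± 1.78 TPM in the hippocampus and 23.2 ± 1.34 TPM in the cerebellum (mean ± SD, n = 4). P2ry12 stood at 47.9 ± 2.67, 49.3 ± 5.17 and 15.7 ± 1.30 TPM in the same order, and Cx3cr1 at 45.3 ± 4.03, 38.0 ± 1.22 and 15.2 ± 1.42 TPM. Trem2 was at 7.20 ± 0.529, 6.56 ± 0.488 and 3.41 ± 0.340 TPM, the lowest mean in neocortex and hippocampus, while in the cerebellum that of Aif1 was lower still, at 3.397 ± 0.931 TPM, within the spread of both genes. Relative to the neocortex, all 8 genes were lower in the cerebellum, against 24.6% of all genes called lower, and for all 8 the groups did not overlap, against 23% of all genes. The log2 difference in log2(TPM + 1) ran from -1.55 ± 0.07 (SE) for P2ry12, a fold of 0.342 (limma, Benjamini-Hochberg adjusted p = 7.56e-11), to -0.89 ± 0.07 for Trem2, a fold of 0.538 (adjusted p = 4.12e-08). The 8 differences had a median of -1.26, beside 0.30 for all genes. Median-ratio scaling brought the median of all genes to 0.01 and that of the members to -1.55.

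The hippocampus lay close to the neocortex. In control mice 3 of the 8 genes passed as lower in the hippocampus, against 21.2% of all genes: Cx3cr1 by -0.24 ± 0.07 (limma adjusted p = 0.00658), Csf1r by -0.24 ± 0.05 (adjusted p = 0.000639) and Sall1 by -0.20 ± 0.08 (adjusted p = 0.0379). P2ry12 (0.04, 95% interval -0.12 to 0.19) and Siglech (0.02, -0.16 to 0.21) did not pass, and their values turned to -0.06 and -0.07 with median-ratio scaling. The call for Sall1 was lost when any control replicate number was left out (adjusted p 0.0577 to 0.105) and without a filter on low values (0.0624), and that for Cx3cr1 was lost in 1 of the 4 leave-one-out fits (highest adjusted p 0.0574). Against the cerebellum, all 8 were higher in the hippocampus, by 0.78 (Trem2) to 1.59 (P2ry12), while 27.4% of all genes were called higher.

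Ordered by group mean, the cerebellum therefore took the bottom pair of the 6 groups for each member, and the ranges of the cerebellar groups overlapped those of the next group up for none of the 8. Within the other 4 groups, most neighbours overlapped. The neighbours that did not overlap there were LLC neocortex and control hippocampus for Csf1r, and control neocortex and control hippocampus for Sall1 and for Aif1 (8.62 to 9.75 against 7.56 to 8.21 TPM). Control neocortex and control hippocampus, though not neighbours there, also did not overlap for Csf1r (lowest neocortex 56.2, highest hippocampus 53.1 TPM) and Cx3cr1 (40.1 and 39.8 TPM). Between these control groups 19.1% of all genes were lower in the hippocampus without overlap. Aif1 did not pass the test between these regions (limma adjusted p = 0.213). Inside the cerebellum, P2ry12 alone separated control from LLC.

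**Figure D1:**
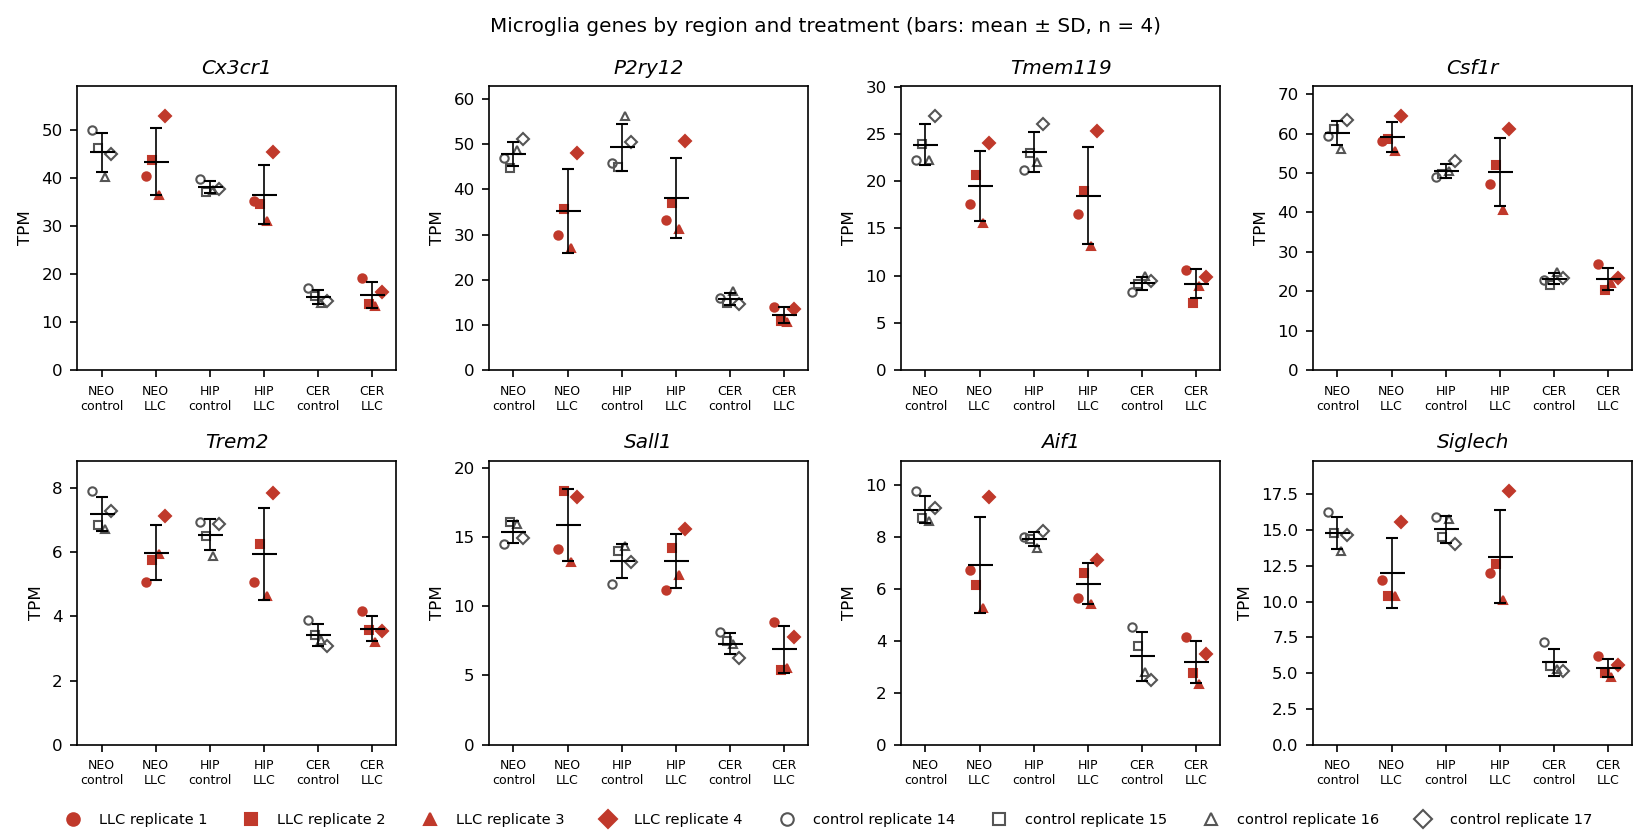
TPM (y axis, from 0) of the 8 microglia genes in each group of region and treatment (x axis), with 1 symbol per library and bars for the mean ± SD of 4 libraries. P2ry12 in LLC neocortex and hippocampus lies below the controls in replicates 1 to 3, while replicate 4, the red diamond, sits among them, and all members are lowest in the cerebellum.

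In the neocortex of LLC mice, the purine receptor P2ry12 was measured at 29.9, 35.6, 27.1 and 48.0 TPM in replicates 1 to 4, against 46.9, 44.8, 48.7 and 51.1 TPM in control replicates 14 to 17. Replicates 1 to 3 were below every control and replicate 4 was among them, so the groups overlapped. The difference was -0.47 ± 0.14 (SE) in log2(TPM + 1), a fold of 0.723, and did not pass the threshold of 0.05 (limma adjusted p = 0.0653). Aif1 showed the same arrangement, with 6.74, 6.14, 5.27 and 9.53 TPM in LLC and 9.75, 8.71, 8.62 and 9.09 TPM in control. Its difference was -0.37 ± 0.13, with an adjusted p of 0.101 by limma.

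Tmem119 was at 17.6, 20.7, 15.6 and 24.1 TPM in LLC neocortex and at 22.2, 23.99, 22.3 and 26.9 TPM in control, a difference of -0.29 ± 0.12. Siglech was at 11.5, 10.4, 10.4 and 15.6 TPM against 16.2, 14.8, 13.5 and 14.7 TPM, a difference of -0.30 ± 0.11. Trem2 was at 5.09, 5.77, 5.96 and 7.14 TPM against 7.91, 6.86, 6.74 and 7.30 TPM, a difference of -0.24 ± 0.09. For each of these 3 genes, LLC replicates 1 to 3 again lay below all controls and replicate 4 did not, and the limma adjusted p lay between 0.112 and 0.129.

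The other 3 members had values near 0. Csf1r, the survival receptor, was at 58.1, 58.7, 55.5 and 64.4 TPM in LLC and 59.4, 61.3, 56.2 and 63.4 TPM in control neocortex, a difference of -0.02 with a 95% interval from -0.14 to 0.10. Cx3cr1 was at 40.4, 43.8, 36.4 and 52.7 TPM against 49.9, 46.2, 40.1 and 44.9 TPM, a difference of -0.07 (-0.30 to 0.16). The transcription factor Sall1 was at 14.1, 18.3, 13.2 and 17.9 TPM against 14.5, 16.1, 15.9 and 14.9 TPM, a difference of 0.03 (-0.18 to 0.25). LLC and control values of these genes were interleaved. By limma 0 of the 8 members passed in the neocortex, where 8.54% of all 14485 genes tested were called and 2.95% were called lower. At an unadjusted p under 0.05 there were 5 of 8, against 29.8% of all genes. The members' median was -0.26, and that of all genes 0.01.

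In the hippocampus the arrangement resembled that in the neocortex. P2ry12 was at 33.3, 37.1, 31.2 and 50.8 TPM in LLC and 45.8, 44.9, 56.2 and 50.4 TPM in control, with replicates 1 to 3 below all controls and replicate 4 above 3 of them. The difference was -0.38 ± 0.14 (limma adjusted p = 0.139). Aif1 was at 5.65, 6.62, 5.43 and 7.10 TPM against 7.99, 7.90, 7.56 and 8.21 TPM, so that all 4 LLC libraries lay below all 4 controls. Its difference was -0.31 ± 0.09, a fold of 0.804, with a limma adjusted p of 0.0747, and 4.81% of all genes were lower without overlap in the hippocampus.

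Tmem119 in the hippocampus was at 16.5, 19.0, 13.2 and 25.3 TPM in LLC and 21.3, 22.96, 22.0 and 26.1 TPM in control, a difference of -0.34 ± 0.16 (limma adjusted p = 0.246). Siglech was at 12.002, 12.6, 10.1 and 17.7 TPM against 15.9, 14.5, 15.8 and 14.02 TPM, a difference of -0.21 ± 0.14. LLC replicate 4 held the highest Siglech value of the 8 hippocampal libraries and replicates 1 to 3 held the lowest. Trem2 differed by -0.14 (95% interval -0.44 to 0.16), Cx3cr1 by -0.07 (-0.29 to 0.15), Csf1r by -0.02 (-0.25 to 0.20) and Sall1 by -0.01 (-0.24 to 0.22). By limma 0 of 8 passed, against 3.61% of the 14650 genes tested (1.03% lower), and 2 had an unadjusted p under 0.05, against 22.2%. The members' median was -0.17 and that of all genes 0.01.

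In the cerebellum P2ry12 was at 13.9, 10.8, 10.7 and 13.6 TPM in LLC and at 15.97, 14.8, 17.5 and 14.7 TPM in control, so all 4 LLC values were below all 4 control values. The difference was -0.34 ± 0.10, a fold of 0.788, and missed the threshold (limma adjusted p = 0.0963), where 10.3% of all genes were lower without overlap. The remaining 7 genes lay between -0.09 (Sall1) and 0.07 (Trem2), and their groups overlapped. Tmem119, for example, was at 10.6, 7.08, 8.93 and 9.87 TPM in LLC and 8.30, 9.16, 9.96 and 9.39 TPM in control, with 1 LLC library below all controls and 1 above them. By limma 0 of 8 passed, against 2.5% of the 14624 genes tested (1.27% lower), with 1 at an unadjusted p under 0.05, against 24.4%, and the members' median equalled that of all genes (-0.04).

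Averaged over the 3 regions per replicate number, P2ry12 was the only member called. This counts 4 values a group and joins regions by the number in the title, which the labels do not say marks 1 mouse. It fell by -0.40 ± 0.11 on the log2 scale, a fold of 0.759 (95% interval of the log2 difference -0.64 to -0.16, limma adjusted p = 0.0402), while 13.1% of all 14873 genes were called and 5.45% called lower. Aif1 joined it at an unadjusted p under 0.05, 2 of 8 members against 32.9% of all genes. The averages of LLC replicates 1 to 3 lay below all controls and that of replicate 4 did not. The call rested on every library number except LLC replicate 4. It was lost without LLC replicate 1, 2 or 3 or without control replicate 14, 15, 16 or 17 (limma adjusted p 0.0695 to 0.114). It was also lost without a filter on low values (0.0829) and without the trend in eBayes (0.0529), and it was kept without LLC replicate 4 (7.35e-04). Aif1 (-0.25 ± 0.10, adjusted p = 0.124), Tmem119 (-0.22 ± 0.10, 0.164), Siglech (-0.20 ± 0.10, 0.198) and Trem2 (-0.10 ± 0.08, 0.380) did not pass by limma. Cx3cr1, Sall1 and Csf1r were at -0.04, -0.02 and -0.02, and the interval of Csf1r ran from -0.15 to 0.11. The members' median was -0.15, and that of all genes -0.01.

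**Figure D2:**
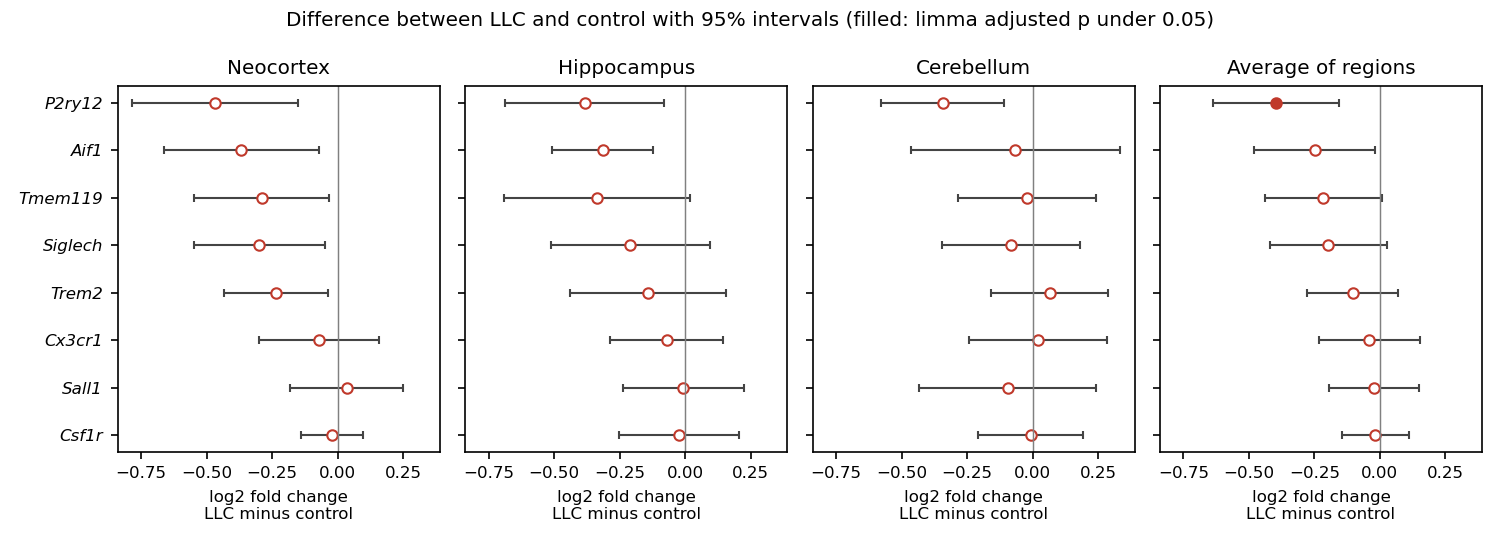
Log2 fold change, LLC minus control, on log2(TPM + 1) (x axis) of each microglia gene (y axis) in the 3 regions and their average, with 95% intervals from limma. P2ry12 is the leftmost gene in every panel, between -0.47 and -0.34, and is filled, for an adjusted p under 0.05, only in the average.

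Differences between regions in the LLC effect were tested directly. None of the 8 members passed in any of the 3 contrasts by limma, and none had an unadjusted p under 0.05. Over all genes 0.646% passed for cerebellum against neocortex (12.9% at an unadjusted p under 0.05), 0% for hippocampus against neocortex (1.91%) and 0.0936% for hippocampus against cerebellum (12.3%). The widest gap was that of Tmem119 between hippocampus and cerebellum, -0.32 ± 0.21 (limma adjusted p = 0.539). Next came those between cerebellum and neocortex for Aif1, 0.30 ± 0.21, and Trem2, 0.30 ± 0.16 (95% interval -0.03 to 0.63, limma adjusted p = 0.441). For P2ry12 the effect in the cerebellum was 0.12 above that in the neocortex (95% interval -0.30 to 0.55).

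The SD of the summed TPM of the 8 members was 30.2 in LLC and 8.51 in control neocortex, 35.4 and 6.83 in the hippocampus, and 11.8 and 4.12 in the cerebellum. In the neocortex LLC replicates 1 to 4 stood at -0.66, -0.41, -0.80 and 0.01 from the control mean for P2ry12 in log2(TPM + 1), and in the hippocampus at -0.55, -0.40, -0.64 and 0.05. Replicate 4 was thus at the control mean in both regions. The summed TPM of the 8 members showed the same order, with 183, 199, 169 and 239 TPM in LLC neocortex against 212 to 232 TPM in control, and 166, 182, 148 and 231 TPM in LLC hippocampus against 198 to 210 TPM in control. LLC replicate 4 exceeded every control in both regions. In the cerebellum it was LLC replicate 1 that was highest, at 93.9 TPM, with 68.7, 70.7 and 83.4 TPM in replicates 2 to 4 and 78.7 to 88.0 TPM in control.

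Without LLC replicate 4, 5 members were called lower in the neocortex by limma: P2ry12 (-0.63, adjusted p = 6.25e-04), Aif1 (-0.51, 0.00154), Siglech (-0.42, 0.00170), Tmem119 (-0.39, 0.0126) and Trem2 (-0.31, 0.0135). Of all genes, 11.3% were called lower in that fit, against 2.95% with all libraries. In the hippocampus P2ry12 (-0.53, adjusted p = 0.00711), Aif1, Tmem119 and Siglech were then called lower, against 4.9% of all genes, and in the average over regions the same 4 were called, against 15.9% of all genes. In the cerebellum, leaving out LLC replicate 1 brought P2ry12 to -0.40 (adjusted p = 0.0353), with 4.39% of all genes called lower. No leave-one-out fit called Csf1r, Cx3cr1 or Sall1 in any region. LLC replicate 4, and replicate 1 in the cerebellum, stood out by the members' own values, so fits without them give no separate support. Each of these members was called in only 1 of the 8 leave-one-out fits of its region or of the average. Across those fits the highest limma adjusted p in the neocortex was 0.174 for P2ry12 and 0.211 for Aif1.

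Erythrocyte genes also set LLC replicate 4 apart in the neocortex and hippocampus. The summed TPM of 7 erythrocyte genes was 11938, 14996, 15354 and 3784 TPM in LLC neocortex replicates 1 to 4, against 1343 to 1730 TPM in control, and 7462, 8080, 10698 and 3000 TPM in LLC hippocampus, against 1155 to 1549 TPM. The summed TPM of 14 neutrophil genes was highest in replicate 4, with 54.9, 186, 73.8 and 220 TPM in LLC neocortex and 10.1 to 15.6 TPM in control. In the cerebellum, LLC replicate 1 held 4682 TPM of 7 oligodendrocyte genes, above the other LLC libraries (2262 to 3040 TPM) and the controls (2796 to 3468 TPM). The part of these sums in the values of the microglia genes was not tested.

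**Figure D3:**
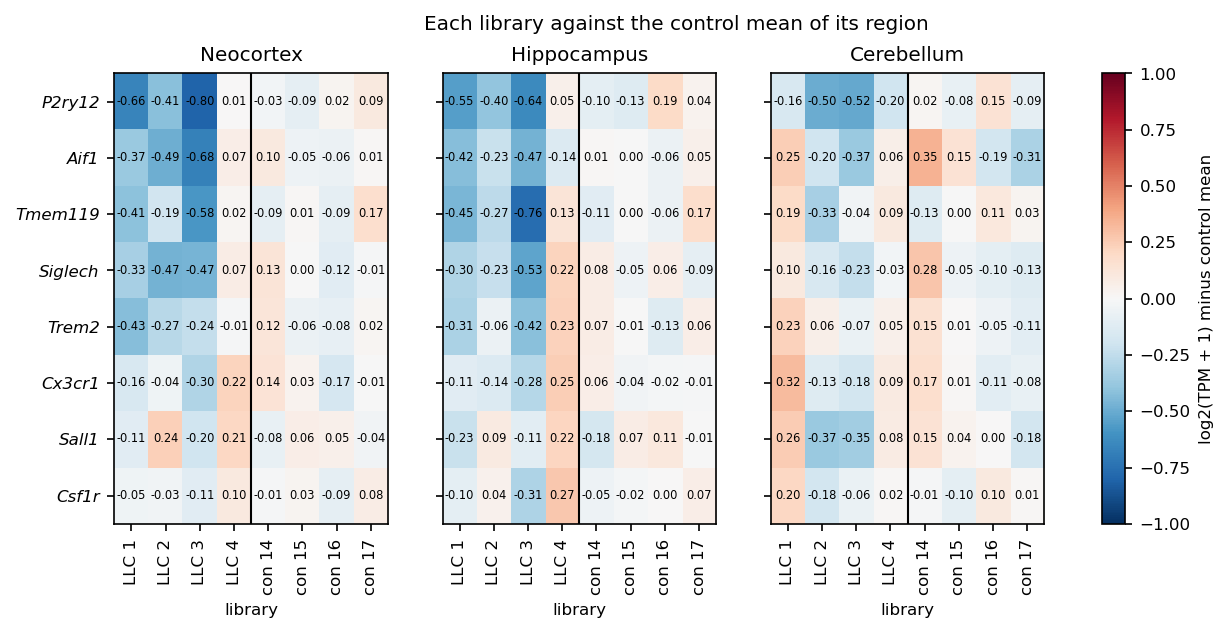
Difference of each library from the control mean of its region in log2(TPM + 1), by microglia gene (rows) and library (columns, LLC replicates 1 to 4 and control replicates 14 to 17), blue for lower and red for higher. P2ry12 is blue in LLC replicates 1 to 3 of neocortex and hippocampus, down to -0.80, and near 0 in replicate 4, whereas Csf1r stays between -0.31 and 0.27 throughout.

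The ratio of each member to Csf1r within a library was compared as well. Both this comparison and its denominator were chosen after the values were seen, because Csf1r had differed little between LLC and control, and Csf1r is also made by other myeloid cells. P2ry12 was at 0.704, 0.713, 0.768 and 0.831 of the Csf1r level in LLC hippocampus and at 0.935, 0.901, 1.11 and 0.950 in control, and LLC replicate 4 was now below all controls. In the cerebellum the ratios were 0.519, 0.533, 0.483 and 0.579 in LLC and 0.696, 0.687, 0.703 and 0.628 in control, again without overlap. In the neocortex they were 0.514, 0.608, 0.487 and 0.746 against 0.790, 0.732, 0.866 and 0.807, where replicate 4 lay above 1 control.

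The log2 ratio of P2ry12 to Csf1r differed between LLC and control by -0.46 ± 0.15 in the neocortex, -0.36 ± 0.07 in the cerebellum and -0.37 ± 0.09 in the hippocampus (SE, 4 libraries per group). Exact two-sided permutation tests gave p = 0.0571, 0.0286 and 0.0286, and 0.0286 is the smallest value that 4 against 4 libraries allow. Aif1 and Tmem119 in the hippocampus (-0.34 ± 0.05 and -0.33 ± 0.08) and Trem2 in the neocortex (-0.25 ± 0.09) also lay below all controls in all 4 LLC libraries (exact p = 0.0286). The ratios of Cx3cr1 and Sall1 differed by -0.11 to 0.06 across regions, with exact p of 0.486 or more. Over the 21 ratio tests 0 had a Benjamini-Hochberg adjusted exact p under 0.05, the lowest being 0.12, and 5 had an unadjusted p under 0.05. Ratios to Csf1r were taken for the members only. Without a share over all genes, these counts and the lack of overlap cannot be read as particular to the members.

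**Figure D4:**
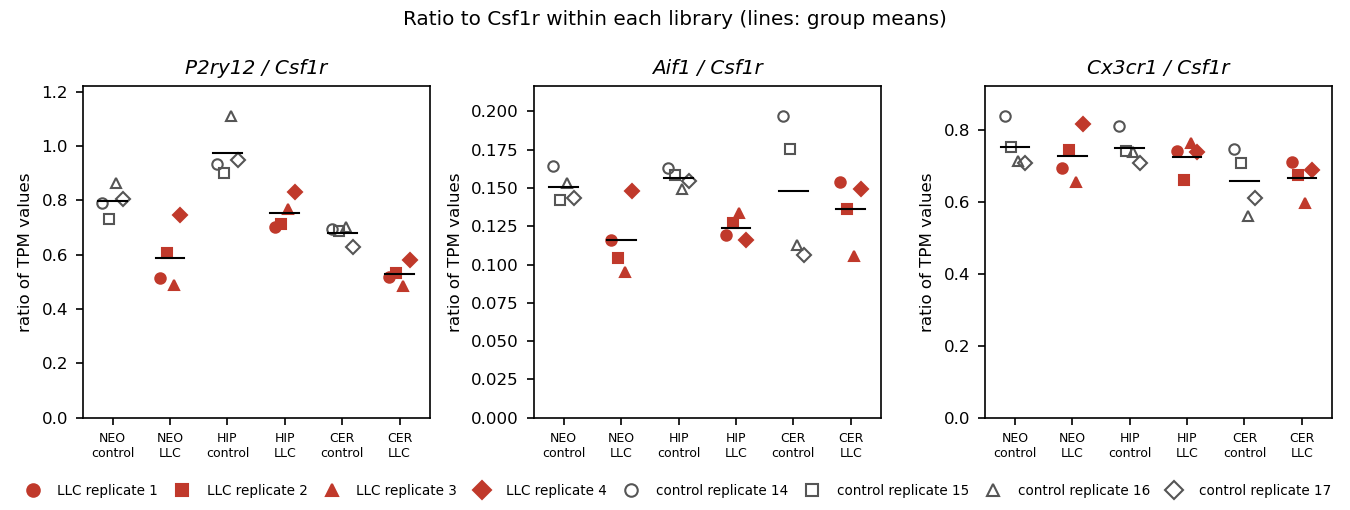
Ratio of the TPM of P2ry12, Aif1 and Cx3cr1 to that of Csf1r in the same library (y axes, from 0) by group (x axis), with a line at each group mean. For P2ry12 all LLC libraries of hippocampus (0.704 to 0.831) and cerebellum (0.483 to 0.579) lie below the controls, while LLC and control ratios of Cx3cr1 overlap in every region.

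Other genes of the homeostatic programme were mixed. The counts called in this and the following lists stand beside those over all genes tested. In the neocortex 809 of 14485 genes were called higher and 428 lower. The counts were 180 and 186 of 14624 in the cerebellum, and 378 and 151 of 14650 in the hippocampus. In the average over regions they were 1139 and 811 of 14873. Of 15 listed genes tested in the neocortex, 3 rose and 1 fell by limma, and their median was -0.20. The genes that rose were Sparc (1.03 ± 0.17, adjusted p = 0.0129), a matrix protein that endothelial cells and astrocytes also make, Rnase4 (0.31 ± 0.08) and the protease inhibitor Cst3 (0.15 ± 0.04), and the one that fell was the receptor gene Tgfbr1 (-0.22 ± 0.06). Sparc also rose in the cerebellum (0.79), as 1 of 13 genes tested, and with Rnase4 (0.29) in the hippocampus (0.77), as 2 of 14, where 0 fell.

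Gpr34, which encodes a microglial lysophospholipid receptor, had -0.42 ± 0.14 in the neocortex, -0.35 ± 0.10 in the cerebellum and -0.36 ± 0.10 in the hippocampus, none passing by limma (adjusted p 0.0759 to 0.0909). In the average over regions it fell by -0.38 ± 0.09 (adjusted p = 0.0250), and 2 of 14 genes fell and 2 rose. In the cerebellum Gpr34 was at 4.59 to 6.39 TPM in LLC and 6.64 to 7.48 TPM in control, without overlap. Fcrls, a microglial Fc receptor-like gene, had the lowest value of the list in the neocortex, -0.65 ± 0.24, and ran from 12.8 to 35.2 TPM in LLC and from 28.0 to 32.8 TPM in control, which did not pass (adjusted p = 0.104).

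The ligands of CSF1R had opposite signs in the neocortex. Csf1 was at 0.18 ± 0.08, and Il34, which neurons make, at -0.20 ± 0.05 (limma adjusted p = 0.147 and 0.0513). None of the 6 genes of CSF1R ligands and signalling passed in the neocortex or hippocampus, nor did any of 5 in the cerebellum. In the average over regions Csf1 rose by 0.26 ± 0.05 (adjusted p = 0.0109), the only one of 6 to pass. Among 6 partners of CX3CR1 and P2RY12, Entpd1, which encodes the enzyme that breaks down extracellular ATP and ADP, rose in the neocortex (0.40 ± 0.06, adjusted p = 0.00668), the cerebellum (0.45 ± 0.10, 0.0469) and the hippocampus (0.33 ± 0.08, 0.0496). It was at 10.8 to 12.2 TPM in LLC and 8.02 to 8.80 TPM in control neocortex. Cx3cl1, which encodes fractalkine, fell in the neocortex (-0.21 ± 0.05, adjusted p = 0.0408), with -0.03 in the hippocampus and 0.01 in the cerebellum. The difference of its effect between cerebellum and neocortex, 0.21 ± 0.13, did not pass by limma (adjusted p = 0.502).

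Of the TREM2 partners, Clu, a lipid carrier that binds TREM2, rose in the neocortex (0.18 ± 0.03, limma adjusted p = 0.0203), as 1 of 5 tested. Tyrobp, the signalling adaptor, was at -0.09, 0.05 and -0.12 in neocortex, cerebellum and hippocampus and did not pass, and 0 of 4 and 0 of 5 genes passed in the latter regions. In the list for transforming growth factor beta, Tgfbr2 (0.47 ± 0.06) and Tgfb1 (0.25 ± 0.06) rose and Tgfbr1 (-0.22 ± 0.06) fell in the neocortex, out of 10. In the cerebellum Itgb8, an integrin subunit that activates the latent factor, fell (-0.47 ± 0.08), and in the hippocampus 0 of 10 passed. In the average over regions 3 of 10 rose (Tgfbr2, Tgfb1 and Nrros) and 3 fell (Tgfbr1, Itgb8 and Smad2).

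Transcription factors of microglia did not pass in any region, 0 of 8 tested in each. Spi1, which encodes PU.1, was at 0.16, 0.07 and 0.09 in neocortex, cerebellum and hippocampus. Runx1 lay under 0.5 TPM on average in every group and was not tested. Partners of the integrin CD11b rose in 3 of 7 cases in the neocortex: Icam1, its endothelial ligand (1.28 ± 0.16, adjusted p = 0.00412), Fermt3, an integrin activator of blood cells (0.34 ± 0.06), and Itgb2, its beta subunit (0.36 ± 0.09). Icam1 alone rose in the cerebellum (1.16) and hippocampus (1.00), as 1 of 8 each. The complement genes C1qa, C1qb and C1qc, which microglia make, lay between -0.03 and 0.23 and did not pass.

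Genes that mark disease-associated microglia showed no common direction. In the neocortex 1 of 16 tested rose, Lgals3 (0.87 ± 0.11, limma adjusted p = 0.00334), a lectin that other myeloid cells also make, and 2 fell, Cd63 (-0.28 ± 0.07) and Fabp5 (-0.22 ± 0.05). In the cerebellum Lgals3 (0.79) and the chemokine Ccl6 (0.70) rose, 2 of 15, and in the hippocampus 0 of 16 passed, with Lpl (-0.53) and Fabp5 (-0.15) having the lowest p. The markers Clec7a, Cst7 and Itgax were below the filter of 1 TPM in every region, with highest single values of 1.49, 0.740 and 0.517 TPM. Inflammatory cytokines and receptors passed in none of the regions (0 of 6, 0 of 4 and 0 of 4), and Nfkbia, an inhibitor that NF-kappaB induces, had values of 0.51, 0.48 and 0.47 in neocortex, cerebellum and hippocampus that did not pass. Of the proliferation genes 0 of 4 passed in the neocortex and 0 of 5 in each other region.

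Markers of other cell types differed in how many rose in LLC mice. Over all genes, 8.54%, 2.5% and 3.61% were called in either direction in neocortex, cerebellum and hippocampus, and 2.95% were called lower in neocortex. Of the border-associated macrophage genes 1 of 7 rose in the neocortex, F13a1 (0.48 ± 0.12), and 0 of 5 and 0 of 4 passed in cerebellum and hippocampus, and their summed TPM was 18.7 to 23.9 in LLC and 15.5 to 19.2 in control neocortex. Monocyte genes rose in 3 of 4, 1 of 4 and 1 of 4 cases in neocortex, cerebellum and hippocampus, with Chil3 in each (2.51, 2.10 and 1.67), and summed to 57.4 to 91.7 TPM in LLC and 34.3 to 37.3 TPM in control neocortex. Neutrophil genes rose in 6 of 9, 4 of 7 and 4 of 6 cases, led in the neocortex by S100a9 (3.63) and S100a8 (3.08). In every region the lowest LLC sum of neutrophil genes, 35.8 TPM in the hippocampus and 54.9 and 56.9 TPM in neocortex and cerebellum, was above the highest control sum, 21.2 TPM. The monocyte markers Ccr2, Plac8 and Ms4a4c stayed below 0.5 TPM in every control library, as did Ms4a4c in LLC cerebellum. Lymphocyte genes summed to at most 13.9 TPM. Endothelial genes rose in 6, 1 and 5 of 7 cases in neocortex, cerebellum and hippocampus, and in the neocortex 3 of 7 oligodendrocyte and 4 of 8 neuronal genes fell. Csf1r, Cx3cr1, Aif1 and Trem2 are also made by some of these cells, and their part in the members' values was not tested.

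Across the 24 libraries, after the mean of each region was removed, the 8 members varied together. Pearson's r between pairs ran from 0.41 (Trem2 with Sall1) to 0.87 (Aif1 with Siglech), with a median of 0.67 over 28 pairs. Siglech followed the mean of the other members most closely (r = 0.89) and Sall1 least (r = 0.61). These correlations describe libraries that share treatment, dissection and possibly mice, and carry no test.

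The 10 genes most like the mean of the members by the same measure, out of 13625 searched, included Selplg (r = 0.93) and Olfml3 (r = 0.92) from the list of other homeostatic genes. Ly86 and Lpcat2, both with r = 0.92, did not pass in any region either. Anxa5, Car2, Eef1g and Paqr4 were also among them (0.91 to 0.92). Car2, a carbonic anhydrase that is abundant in oligodendrocytes, fell in the neocortex (-0.50 ± 0.09, limma adjusted p = 0.0181), as did Paqr4 (-0.28 ± 0.07, 0.0381).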

How the data were processed

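RNA of 24 mouse brain samples, 4 for each combination of 3 regions with LLC or control, was sequenced from stranded mRNA libraries, per the labels' protocols. The authors deposited TPM values per gene symbol in 1 table whose columns each sum to 1000000. Mouse mm10 is the genome build that the submitters' processing notes name. No source used here names the aligner, the counting tool or a filter. TPM keeps no depth, so no counting error can be given.

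Groups came from the titles. Values were tested as log2(TPM + 1) with limma 3.58.1 (lmFit, eBayes with a trend) in R 4.3.3, two-sided, over genes with a mean of at least 1 TPM, with Benjamini-Hochberg adjustment over all genes at 0.05. All 8 members analysed passed the filter in every comparison. Fold changes are on that scale and understate those of low genes. A region used its 8 libraries, the average used 8 means over regions per title number, differences between regions used all 24 libraries, and control regions used the 12 control libraries. Members, lists and tests were chosen with earlier results of these data known. All members are named, then from each list up to 4 genes that passed, by p, or the 2 lowest p values where none did, and the 10 genes most like the members. Genes named beyond that, such as Gpr34, Fcrls, Tyrobp, Spi1 and the C1q genes, and the ratios to Csf1r, tested by exact permutation, were chosen after the values were seen. Some genes that the rule names are not reported here. The fits were tested on simulated data. Promoter windows came from RefSeq (GRCm38.p6). The alternatives were another pseudocount (0.1), other filters (5 TPM or no filter), 2 scalings (median-ratio, quantile), robust or untrended eBayes, library weights, 1 joint fit, a replicate block, and the omission of single replicates. Figures were drawn with matplotlib 3.10.9 in Python 3.11.15.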

Additional observations from a re-analysis of the deposited data

How the results depend on the processing

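P2ry12 was lower in LLC in every fit run for the 3 regions and the average. The members' median stayed below 0 in neocortex, hippocampus and average under all alternatives, and in the cerebellum it ranged from -0.12 to 0.025 when 1 replicate was left out. Members called lower numbered 0 to 5 in the neocortex, 0 to 1 in the cerebellum, 0 to 4 in the hippocampus and 0 to 4 in the average when 1 replicate was left out, and all genes called numbered 187 to 3834, 6 to 1570, 57 to 1667 and 379 to 4331. Library weights gave 5, 3 and 1 members lower in neocortex, cerebellum and hippocampus, with 4337, 5769 and 1180 genes called in all: P2ry12, Tmem119, Trem2, Aif1 and Siglech, then P2ry12, Tmem119 and Sall1, then Aif1, against 12.3%, 22% and 2.74% of all genes called lower, and quantile normalization gave 1 in the hippocampus, Aif1, against 1.6%. Robust eBayes moved none of these results. Without a filter or without a trend 0 members were called in the average. Without a filter the genes called numbered 577, 71, 220 and 1088 in neocortex, cerebellum, hippocampus and average, and 2 for the difference of the LLC effect between hippocampus and neocortex. Without a trend they numbered 818 in the neocortex and 287 in the hippocampus, and in 1 fit of all 24 libraries 784 in the neocortex and 3012 in the cerebellum. In the cerebellum, 742 and 825 were called under median-ratio and quantile scaling. For the effect in hippocampus against cerebellum 3 were called at a filter of 5 TPM, 22 with quantile normalization, 6 with weights per region and 1 to 220 when a replicate was left out, and for cerebellum against neocortex 4 to 287. The cause of these shifts was not tested.

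Among members near 0, signs turned. With median-ratio and quantile scaling the cerebellar values became 0.019 and 0.033 for Tmem119 and 0.035 and 0.046 for Csf1r, and hippocampus minus neocortex in controls became -0.056 and -0.036 for P2ry12 and -0.066 and -0.080 for Siglech. Weights turned Sall1 to -0.028 in the neocortex and Cx3cr1 to -0.064 in the cerebellum, and the ratio to Csf1r, an alternative chosen after seeing the data, turned Sall1 to 0.017 in the hippocampus. Leaving out 1 replicate gave ranges in the neocortex of -0.17 to 0.0060 (Cx3cr1), -0.063 to 0.0073 (Csf1r) and -0.035 to 0.11 (Sall1). In the cerebellum they were -0.076 to 0.091 (Cx3cr1), -0.091 to 0.084 (Tmem119), -0.077 to 0.052 (Csf1r), -0.17 to 0.051 (Aif1) and -0.14 to 0.011 (Siglech). In the hippocampus they were -0.18 to 7.68e-05 (Cx3cr1), -0.12 to 0.071 (Csf1r) and -0.081 to 0.066 (Sall1), and in the average -0.11 to 0.032, -0.066 to 0.030 and -0.087 to 0.042 for the same genes in that order. P2ry12 ran from -5.21e-04 to 0.23 for the effect in cerebellum against neocortex. In controls, hippocampus minus neocortex, P2ry12 ran from -0.017 to 0.062 and Siglech from -0.037 to 0.051, with 1 to 2 members called lower, against 18.5% to 19.1% of all genes, and 5 under quantile normalization, against 28.8%.

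In controls the members' median for cerebellum minus neocortex was -1.37 with a pseudocount of 0.1, -1.55 with median-ratio and -1.56 with quantile scaling. For hippocampus minus cerebellum it was 1.28, 1.38 and 1.38, and 1.13 to 1.19 when a replicate was left out, and for hippocampus minus neocortex -0.23 and -0.24 under the scalings. Among genes called, the share that was higher went with median-ratio scaling from 65.4% to 55.1% in the neocortex and from 71.5% to 60.2% in the hippocampus, and in controls from 70.9% to 49.8% for cerebellum minus neocortex, from 65.5% to 49.3% for hippocampus minus neocortex and from 33.0% to 49.6% for hippocampus minus cerebellum.

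LLC and control libraries with the same number in their descriptions correlated over 0.1 in 5 of 12 pairs, beside 11 of 36 pairs with unlike numbers. Regions with the same title number did so in 16 of 24 pairs, beside 6 of 72 with unlike numbers, so libraries of 1 title number were more alike. The main fits within a region and between regions took neither number as a pairing. Those between regions, also in controls, thus treated libraries of 1 title number as independent. The average over regions, which holds the only call of a member in LLC against control, does join the 3 regions by title number. Of 24 libraries, 18 correlated best with a library of their own title number and 8 with their own description number. With the description number as a replicate block 641, 724 and 179 genes were called in neocortex, cerebellum and hippocampus, and with the title number as a block 266 and 84 for the effect differences of cerebellum against neocortex and hippocampus against cerebellum. The average as a fit of 24 libraries with the title number as a replicate block called 3496 genes. No block changed the call of a member. TPM keeps no depth, so a limit of detection cannot be given.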
